A study of Drosophila melanogaster with 9 samples.

Results

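The comparison of *Notch-RNAi* with control Dl+ cells asks how the transcriptome of sorted intestinal stem cells (ISCs) and their close relatives differs once the receptor Notch has been depleted. It covered 11493 of the 17481 genes in the deposited table, those whose FPKM averaged 0.1 or more over the 9 libraries of the series. FPKM is a count of fragments divided by transcript length and by the number of fragments mapped in a library. The genes of the *E(spl)* complex and of the cell cycle are set aside here, and the account follows 50 other lists of genes, which together held 1269 tested genes. These lists were chosen with earlier results of these data known. Some listed genes were not matched by symbol and were not analysed by name. Among them were *esg*, *lola*, *da*, *wg*, *InR*, *S6k*, *btl* and *br*, so counts of calls in their lists leave them out.

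The libraries came from GFP+ cells sorted by FACS from intestines of adult flies aged 5 to 7 days by the sample labels. In 3 libraries the flies carried *Dl-Gal4*, *UAS-GFP*, a temperature-sensitive *Tub-Gal80* and *UAS-Notch-RNAi*. In 3 control libraries they carried *Dl-Gal4*, *UAS-GFP* and the *Gal80* transgene without an RNAi construct, and the labels give their genotype as wild type. The remaining 3 libraries, from *gro-RNAi* flies, entered the model only to estimate the spread. *Dl-Gal4* drives expression in cells with an active *Dl* gene, so a sort on GFP follows the driver and the persistence of GFP and not a cell identity. The strain list of the study names 1 *UAS-Notch-RNAi* line. Its RNA-seq methods describe pooled midguts and give culture conditions for the *gro-RNAi* and control flies. Their crosses were kept at a low temperature, and young adults were moved to a higher temperature for some days before dissection. The methods give the age at this shift, and the age printed here is that of the labels. Culture conditions of the *Notch-RNAi* flies are not given in the sources used here. RNA from sorted cells was amplified before sequencing.

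In the midgut, an ISC divides to renew itself and to give an enteroblast (EB), which becomes an absorptive enterocyte (EC) when Notch is activated in it, or a precursor of a hormone-secreting enteroendocrine cell (EE). Low Notch activity permits proneural factors of the *achaete-scute* complex to act, and these start the EE programme. EEs are divided into subtypes by the peptide hormones they make. Loss of Notch from midgut progenitors is known for clusters of ISC-like cells and for extra EEs.

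The libraries were not of equal depth or scale. By an estimate from the steps between low values, *Notch-RNAi* libraries held about 17600000, 16200000 and 18900000 reads, against 11200000, 12600000 and 11500000 in control. Between 12574 and 13086 genes were above 0 in a *Notch-RNAi* library and between 11629 and 11811 in a control library. The median log2 difference over all tested genes was 0.46, *Notch-RNAi* minus control. Differences below are therefore given relative to this median, on the scale log2(FPKM + 0.1), which understates the change of low genes. A gene was called only if its limma adjusted p was under 0.05 in the same direction both with the values as deposited and with all libraries centred on the same median, and the larger of both adjusted p-values is printed. By this criterion 958 genes were higher in *Notch-RNAi* (8.34% of those tested) and 493 were lower (4.29%). As deposited, 2806 genes were higher and 493 lower. After centring alone, 958 were higher and 1294 lower. Of the called genes, 734 of the higher ones and 488 of the lower ones differed by at least 2-fold. No source states that the libraries came from separate cultures beyond the pooled midguts, so p-values measure the spread between these libraries. The targeted gene *N*, which encodes the receptor, had 13.9, 16.1 and 9.78 FPKM in *Notch-RNAi* and 40.9, 36.9 and 28.5 FPKM in control (-1.88, limma adjusted p = 0.00242).

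The share of called members of each list, set against the share of all tested genes, gives the outline of the comparison. Factors of EE fate, genes of cell death, receptors for neuropeptides and genes of exocytosis had shares of higher members well above 8.34%. So did Notch pathway genes (21.7%) and 3 marker lists of other tissues. These were germline and follicle (33.3% of 9 tested), haemocytes (33.3% of 3) and neurons and glia (25.0% of 12). Peptide hormones, glucuronosyltransferases, gut region factors and cytochrome P450 genes were among the lists with shares of lower members above 4.29%. The lists of Wingless pathway genes (21 tested) and of peritrophic matrix and mucin genes (22 tested) held no called member in either direction by limma. At an unadjusted p under 0.05 under both scalings, 4 Wingless genes were higher and 0 lower, and 0 peritrophic matrix genes were higher or lower. Of the 21 Wingless genes, 9 lay above and 12 below the median of all genes, with relative log2 differences from -1.39 to 1.32. The 4 key members were *fz3* (-0.78 relative to the median of all genes, on the log2 scale), *nkd* (-0.48), *Notum* (-0.33) and *fz2* (-0.14), and none was called. The ligand gene *wg* was not matched by symbol.

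**Figure D1:**
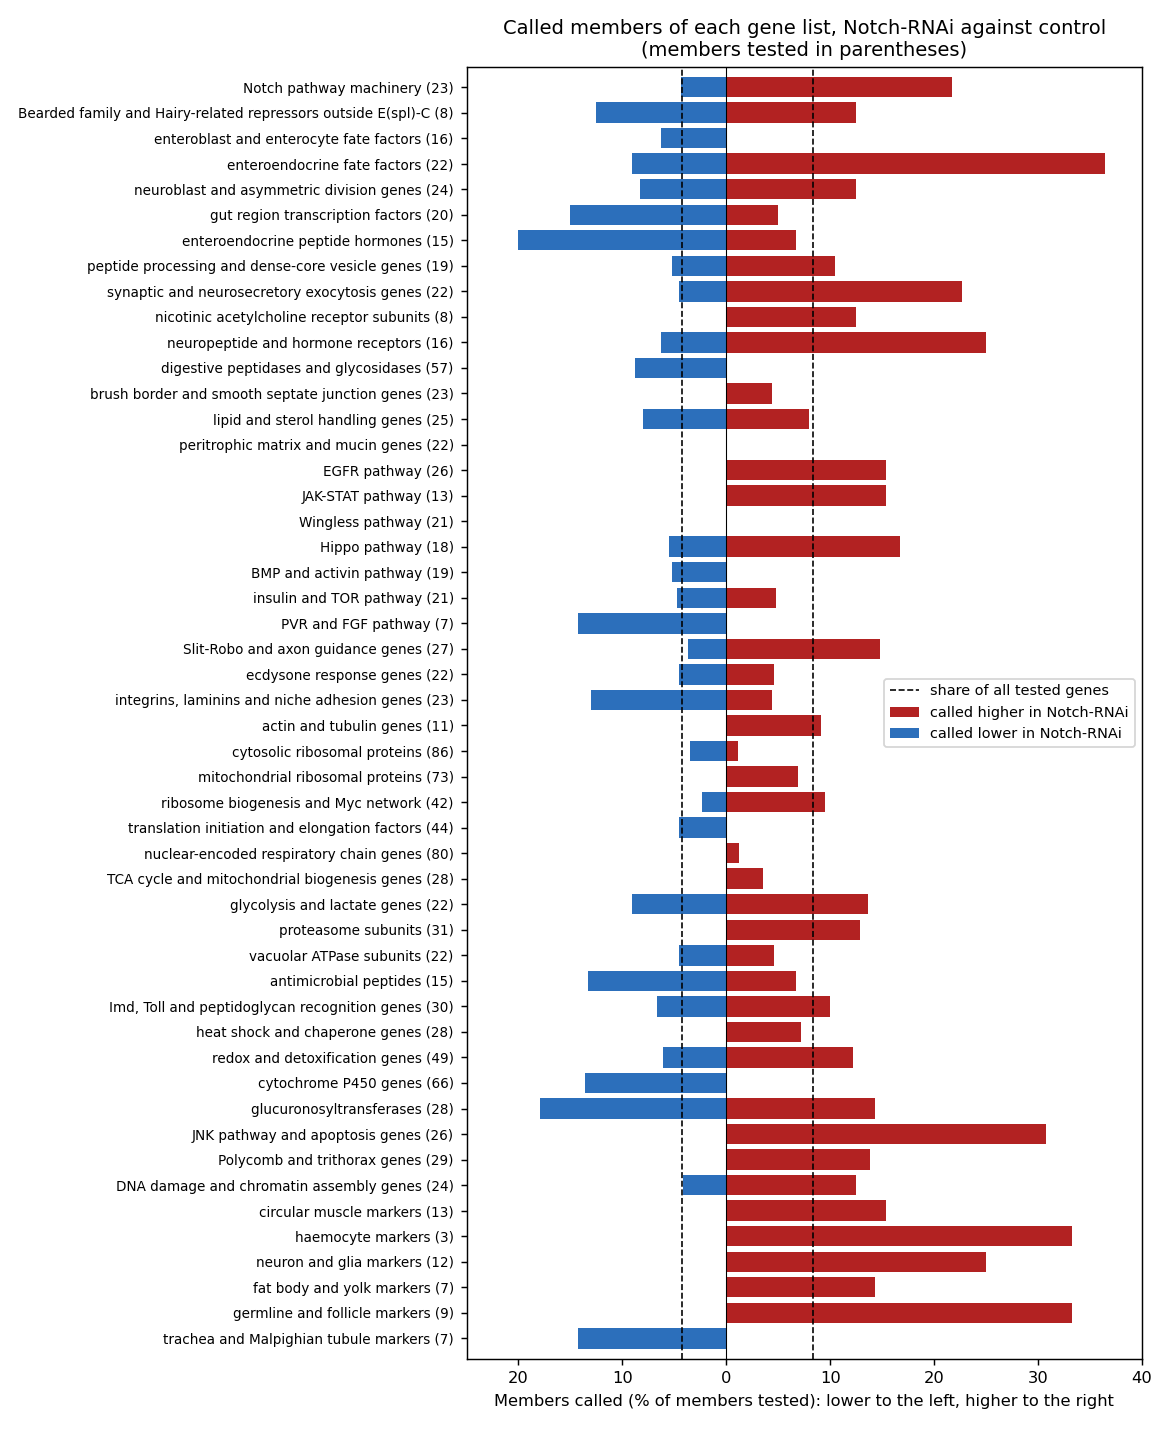
Share of tested members called in each of 50 gene lists (horizontal axis, percent of the members tested; red bars to the right are members higher in Notch-RNAi, blue bars to the left are members lower). Dashed lines mark the share of all 11493 tested genes, 8.34% higher and 4.29% lower; enteroendocrine fate factors reach 36.4% higher and enteroendocrine peptide hormones 20% lower.

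Of 22 tested EE fate factors, 8 were called higher and 2 lower, with a list median of 0.02 relative to all genes, so that a subset moved and the list as a whole did not. *insb*, a nuclear repressor that dampens Notch output in sensory precursors, had 22.7, 21.3 and 20.6 FPKM in *Notch-RNAi* and 1.17, 0.695 and 0.192 FPKM in control. *phyl*, the adaptor that with the ligase Sina removes the repressor Tramtrack, had 15.8, 19.1 and 10.1 FPKM in *Notch-RNAi* and 0.259, 0.413 and 0.501 FPKM in control. The groups were widely separated for both genes, with relative log2 differences of 4.56 for *insb* (SE 0.63, limma adjusted p = 0.00169) and 4.46 for *phyl* (SE 0.62, limma adjusted p = 0.00168). Because these are bulk libraries, fewer cells of a type and less RNA per cell cannot be told apart here or in any result below, nor can more cells and more RNA per cell.

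The proneural genes followed the same direction. *sc*, the bHLH factor that induces EE precursors, had 4.85, 6.12 and 4.14 FPKM in *Notch-RNAi* against 1.3, 0.365 and 0.199 FPKM in control (2.67, limma adjusted p = 0.0102). Its complex neighbour *ase*, a marker of neural precursors, had 1.34, 1.07 and 1.10 FPKM in *Notch-RNAi* against 0.0759, 0.0337 and 0.0368 FPKM in control (2.64, limma adjusted p = 0.00981). Both genes overlap *CG32816* on the other strand, and whether the authors counted by strand is not given in the sources used here. *pros*, the homeodomain factor that fixes EE identity, had 7.85, 10.4 and 8.07 FPKM in *Notch-RNAi* against 1.90, 1.25 and 1.85 FPKM in control (1.88, limma adjusted p = 0.00309). It overlaps *KP78b* on the other strand. *dimm*, the bHLH factor that scales up the secretory machinery of neuroendocrine cells, had 3.61, 3.10 and 2.71 FPKM in *Notch-RNAi* against 0.109, 0.146 and 0.137 FPKM in control (3.35, limma adjusted p = 0.000952). In each of these genes the lowest *Notch-RNAi* library lay above the highest control library. The same held, in FPKM as deposited, for all 958 genes called higher and for 4484 of the 11493 tested genes. The reverse order was found in 920 tested genes.

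Lower values marked a second set of fate genes. *exex*, a homeobox factor, had 3.80, 4.38 and 9.72 FPKM in *Notch-RNAi* and 68.4, 16.4 and 27.3 FPKM in control (-2.96, limma adjusted p = 0.0125). *odd*, a zinc finger repressor, had 0.946, 1.11 and 1.00 FPKM in *Notch-RNAi* and 2.29, 1.78 and 2.33 FPKM in control (-1.45, limma adjusted p = 0.0178). *tap*, a neurogenin-like bHLH factor of EE cells, had a higher level in each *Notch-RNAi* library, 0.997 to 1.93 FPKM against 0.0425 to 0.263 FPKM in control, and missed the threshold (2.26, limma adjusted p = 0.109). The Pax factor *Poxn* (2.70, limma adjusted p = 0.0275), which overlaps *tun*, and the neuronal zinc finger factor *nerfin-1* (2.07, limma adjusted p = 0.0126) were called higher. With 1 library left out at a time, *Poxn* kept its call only without control replicate 1 (adjusted p up to 0.0864). *nerfin-1* lost its call without *Notch-RNAi* replicate 1 or 2 (up to 0.0632), as did *exex* (up to 0.0622). *odd* lost it without *Notch-RNAi* replicate 1 or control replicate 3 (up to 0.0701), and the calls of *insb*, *phyl*, *dimm*, *sc*, *ase* and *pros* were kept in all 6 fits. *mirr*, a homeobox factor, was not called (-1.14, limma adjusted p = 0.326).

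Markers of the EB side gave a single call. Among 16 tested EB and EC fate factors, 1 was called lower and 0 higher, with a median of -0.40 (0.06 as deposited). The listed factors *esg* and *lola* were not matched by symbol and are not among them. The called gene was *klu*, a zinc finger repressor of EBs, with 3.20, 4.87 and 3.61 FPKM in *Notch-RNAi* and 38.1, 15.1 and 15.0 FPKM in control (-2.85, limma adjusted p = 0.00233). *Sox21a*, a Sox factor of ISCs and EBs, was not called and its groups overlapped, with 45.0, 57.6 and 53.4 FPKM in *Notch-RNAi* and 103, 30.9 and 42.5 FPKM in control. *Sox100B* likewise had 78.4, 88.3 and 95.8 FPKM in *Notch-RNAi* and 101, 64.7 and 58.8 FPKM in control (-0.20, limma adjusted p = 0.46). *GATAe*, the GATA factor of midgut differentiation, differed by -0.62 (limma adjusted p = 0.675). The factors *emc* (-0.79), *zfh2* (-0.30) and *pdm2* (-0.02) were not called.

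Hairy-related and asymmetric division genes gave further calls in both directions. *dpn*, a bHLH repressor that keeps neuroblasts undifferentiated, had 0.612, 0.398 and 2.65 FPKM in *Notch-RNAi* and 11.7, 2.95 and 6.12 FPKM in control (-3.08, limma adjusted p = 0.0254). *hry* (*hairy*), a repressor of the same family, lay on the other side, with 122, 151 and 50.8 FPKM in *Notch-RNAi* and 30.9, 17.5 and 13.8 FPKM in control (1.86, limma adjusted p = 0.0153). Each was 1 of 8 tested genes in the list of Bearded family genes and Hairy-related repressors, and the only one called in its direction. That list also held *side* (sidestep), a gene of neither family. *dpn* lost its call in 4 fits with 1 library left out, those without *Notch-RNAi* replicate 1 or 2 or without control replicate 1 or 3 (adjusted p up to 0.108). *hry* lost it in 3, without *Notch-RNAi* replicate 1 or 2 or without control replicate 3 (up to 0.0666). In the list of 24 neuroblast and asymmetric division genes, 3 were higher (12.5%) and 2 lower (8.33%). They were *ase*, *pros*, *dpn* and *klu*, given above, and *loco*, an RGS protein that acts in asymmetric division, with 200, 186 and 158 FPKM in *Notch-RNAi* and 56.3, 51.7 and 29.7 FPKM in control (1.56, limma adjusted p = 0.00362). *insc*, which orients that division, was not called (0.85, limma adjusted p = 0.0823), nor were *pon* (0.59) and *mira* (-0.06) of the same process. *Hey* (-0.03), a Hairy-related gene, and *side* (1.24) were not called either.

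The Notch pathway itself held 5 higher members and 1 lower, *N*, among 23 tested (21.7% higher). *Dl* (listed as Delta), the ligand, had 38.8, 46.7 and 54.7 FPKM in *Notch-RNAi* and 6.56, 7.09 and 3.93 FPKM in control (2.54, SE 0.38, limma adjusted p = 0.00217). Since the *Dl* driver was also the basis of the sort, the level of *Dl* is not independent of how the cells were collected. *spdo* (Sanpodo), a membrane protein that acts on Notch in asymmetric divisions and whose gene overlaps *PH4alphaEFB* on the same strand, had 6.40, 6.5 and 5.60 FPKM in *Notch-RNAi* and 1.3, 0.637 and 1.04 FPKM in control (2.10, limma adjusted p = 0.00361). The ubiquitin ligase gene *dx* (1.36, limma adjusted p = 0.00679), the Notch O-glucosyltransferase gene *rumi* (0.95, limma adjusted p = 0.0047) and the co-activator gene *mam* (0.93, limma adjusted p = 0.0353) were also higher. *mam* kept its call only without control replicate 1 (adjusted p up to 0.118), and the other 5 calls were kept in all 6 fits. *Su(H)*, the DNA-binding factor of the pathway, had 3.09, 3.61 and 3.20 FPKM in *Notch-RNAi* and 3.82, 3.30 and 2.74 FPKM in control and was not called (-0.44). *numb*, the Notch inhibitor inherited by 1 daughter, was not called either (-0.60, limma adjusted p = 0.762). The ligase gene *neur* (0.12) and the co-repressor gene *H* (-0.12) were not called.

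Peptide hormones of EEs split by gene. Of 15 tested, 3 were lower (20%) and 1 was higher (6.67%). *NPF*, which links feeding and mating to the gut, had 4.63, 3.92 and 2.57 FPKM in *Notch-RNAi* and 300, 130 and 471 FPKM in control (-6.62, SE 0.70, limma adjusted p = 0.000715). *Tk* (tachykinin), a regulator of gut lipid metabolism, had 4.82, 3.39 and 5.10 FPKM in *Notch-RNAi* and 138, 55.4 and 110 FPKM in control (-4.86, SE 0.32, limma adjusted p = 0.000117). *Dh31*, which stimulates gut contraction, had 2.11, 1.34 and 1.10 FPKM in *Notch-RNAi* and 29.7, 20 and 18.0 FPKM in control (-4.28, SE 0.42, limma adjusted p = 0.000694). The highest *Notch-RNAi* library lay far below the lowest control library for each. All *Notch-RNAi* libraries lay below all control libraries in 487 of the 493 genes called lower and in 920 of all tested genes. *Tk* overlaps *Ect3* on the other strand and *Dh31* overlaps *Bace* on the same strand.

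Of the other hormones, 1 was called, and it was higher. *CCHa1*, a brain-gut peptide, had 1270, 1110 and 786 FPKM in *Notch-RNAi* and 234, 187 and 269 FPKM in control (1.72, SE 0.23, limma adjusted p = 0.000984). *Orcokinin* had 485, 419 and 517 FPKM in *Notch-RNAi* and 69.4, 71.5 and 206 FPKM in control. No library overlapped, as in 4484 tested genes in this direction, and it missed the threshold (1.77, limma adjusted p = 0.134). *AstC* (allatostatin C), the marker of the other main EE class, had 943, 1050 and 1270 FPKM in *Notch-RNAi* and 654, 339 and 550 FPKM in control (0.66, limma adjusted p = 0.147). *CCHa2* had 531, 690 and 1150 FPKM in *Notch-RNAi* and 427, 212 and 466 FPKM in control (0.65, limma adjusted p = 0.284). None of these 3 was called in the fit of all 9 libraries. *AstA* had 258, 211 and 116 FPKM in *Notch-RNAi* and 333, 331 and 700 FPKM in control (-1.66, limma adjusted p = 0.147). *Mip* (-0.43), *ITP* (-0.18), *sNPF* (1.3) and *CCAP* (0.38) were not called. The calls of *NPF*, *Tk*, *Dh31* and *CCHa1* were kept with any 1 library left out, and the difference between hormones was not tested against one another.

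**Figure D2:**
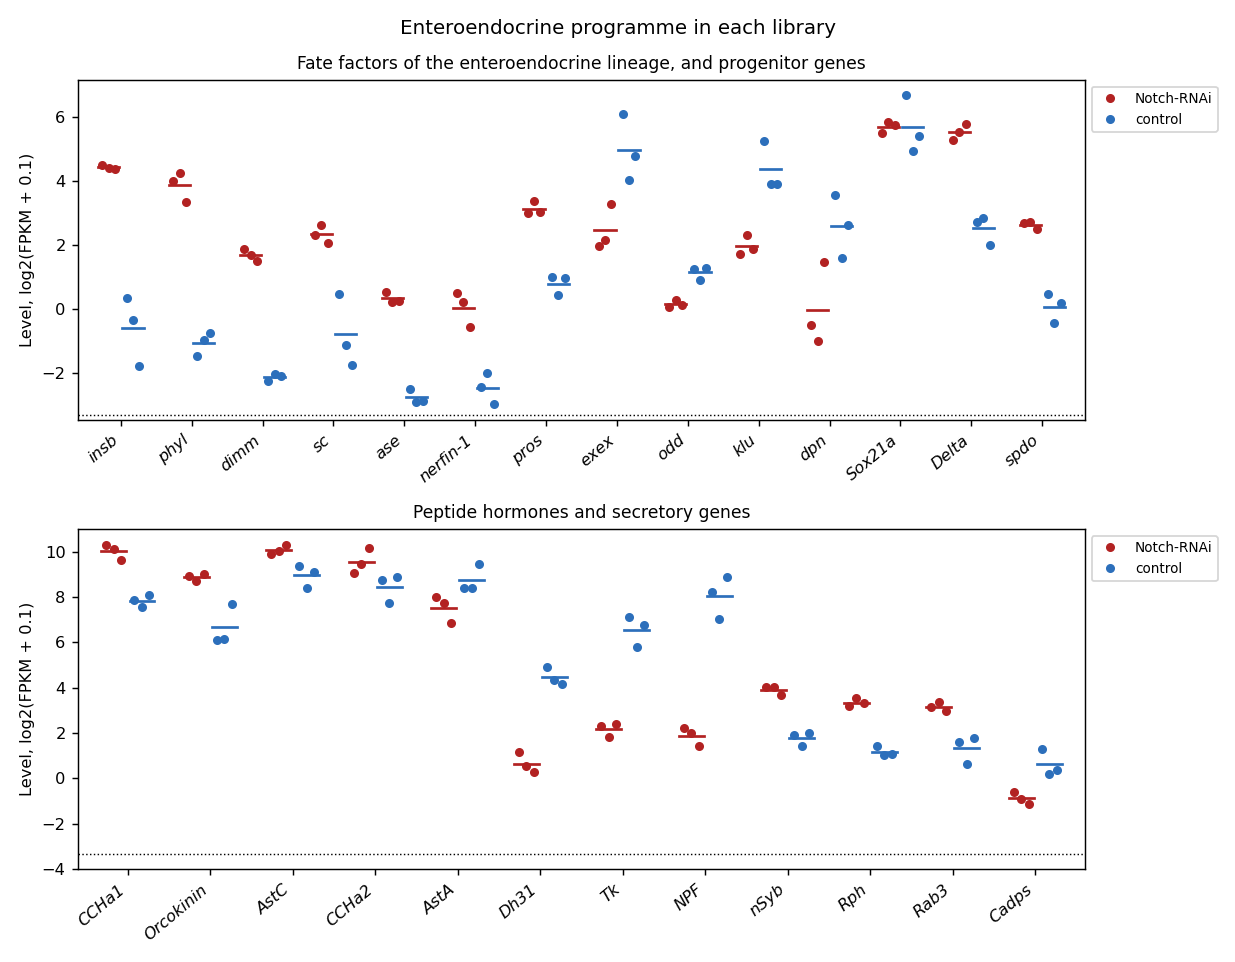
Level of enteroendocrine lineage genes and progenitor genes (upper panel) and of peptide hormone and secretory genes (lower panel) in each library, as log2(FPKM + 0.1); points are libraries, Notch-RNAi in red left of control in blue, short lines are group means and the dotted line is 0 FPKM. Dh31, Tk and NPF stand far lower in all 3 Notch-RNAi libraries, while CCHa1 is higher. AstC, CCHa2 and Orcokinin are not called in the fit of all 9 libraries.

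The machinery of regulated secretion was higher in part. Among 22 exocytosis genes, 5 were higher (22.7%) and 1 lower, with a median of 0.65. *nSyb*, the v-SNARE of synaptic vesicles, had 16.1, 16.0 and 12.7 FPKM in *Notch-RNAi* and 3.71, 2.59 and 3.91 FPKM in control (1.66, limma adjusted p = 0.00386). *Rph* (rabphilin), a Rab3 effector, had 8.91, 11.4 and 9.81 FPKM in *Notch-RNAi* and 2.58, 1.97 and 2.00 FPKM in control (1.69, limma adjusted p = 0.00967). It overlaps *ras* on the other strand. The calcium channel genes *stj*, *Ca-alpha1D* and *cac* were higher by 1.60, 1.59 and 1.57, with limma adjusted p of 0.0332, 0.0223 and 0.0316. The potassium channel gene *Shal* was lower, with 1.18, 1.11 and 2.13 FPKM in *Notch-RNAi* and 5.00, 4.40 and 2.28 FPKM in control (-1.79, limma adjusted p = 0.025). *cac* lost its call in each of the 6 fits with 1 library left out (adjusted p up to 0.0889). *Ca-alpha1D* kept it only without *Notch-RNAi* replicate 3 (up to 0.0892). *stj* and *Shal* lost it without *Notch-RNAi* replicate 1 or 2 or control replicate 1 or 2 (up to 0.123 and 0.0977). *Syx1A* (0.67, limma adjusted p = 0.0753) and *Syt1* (1.01, limma adjusted p = 0.0618) were not called, and neither were *brp* (0.79) and *Snap25* (-0.31).

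Of 19 genes of peptide processing and dense-core vesicles, 2 were higher (10.5%) and 1 lower (5.26%), against 8.34% and 4.29% of all tested genes. *Rab3*, a vesicle GTPase, had 8.72, 10.2 and 7.84 FPKM in *Notch-RNAi* and 2.97, 1.43 and 3.32 FPKM in control (1.37, limma adjusted p = 0.018). It overlaps *CAH13* and lost its call without *Notch-RNAi* replicate 1 or 2 (adjusted p up to 0.0723). *7B2*, the chaperone of a prohormone convertase, had 93.4, 85.8 and 88.5 FPKM in *Notch-RNAi* and 21.1, 26.8 and 48.4 FPKM in control (1.10, limma adjusted p = 0.0465), and kept its call only without control replicate 3 (up to 0.134). *Cadps*, which primes dense-core vesicles, was lower, with 0.567, 0.430 and 0.351 FPKM in *Notch-RNAi* and 2.37, 1.03 and 1.18 FPKM in control (-1.95, limma adjusted p = 0.0204). It lost its call without *Notch-RNAi* replicate 2 or 3 or control replicate 1 (up to 0.0665). The convertase gene *amon* itself had 6.31, 6.94 and 7.71 FPKM in *Notch-RNAi* and 5.06, 2.81 and 4.80 FPKM in control and was not called (0.29, limma adjusted p = 0.607), nor were *IA-2* (0.47), *Pal2* (0.87, limma adjusted p = 0.0909), *svr* (0.23) and *Sec5* (0.11).

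Receptors were among the low genes with large differences. Of 16 tested neuropeptide and hormone receptors, 4 were higher (25.0%) and 1 lower, and 11 further receptors lay below 0.1 FPKM. *SPR*, the receptor of the sex peptide, had 6.60, 6.38 and 2.71 FPKM in *Notch-RNAi* and 0.116, 0.712 and 0.112 FPKM in control (3.43, limma adjusted p = 0.0106). It overlaps *frma* on the other strand. *NPFR*, *ETHR* and *Pdfr* were higher by 1.99, 1.66 and 1.57, with limma adjusted p of 0.0314, 0.0455 and 0.0331. *AstA-R2*, a receptor of allatostatin A, had 0.129, 0.280 and 0.0838 FPKM in *Notch-RNAi* and 1.35, 0.906 and 1.15 FPKM in control (-2.74, limma adjusted p = 0.0036). The calls of *SPR* and *AstA-R2* were kept in all 6 fits with 1 library left out. *NPFR* kept its call only without control replicate 1 (adjusted p up to 0.0877), and *ETHR* and *Pdfr* lost theirs in 4 of the 6 fits, those without *Notch-RNAi* replicate 1 or 2 and 2 of the control libraries each (replicates 1 and 2 for *ETHR*, 1 and 3 for *Pdfr*, up to 0.167 and 0.12). Of 8 nicotinic acetylcholine receptor subunits, *nAChRbeta1* was called, with 3.55, 4.94 and 3.06 FPKM in *Notch-RNAi* and 0.415, 0.345 and 0.438 FPKM in control (2.5, limma adjusted p = 0.00158).

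Factors that pattern the length of the gut were mostly lower where they were called. Of 20 tested, 3 were lower (15.0%) and 1 higher, with a median of -0.32 (0.14 as deposited). Besides *exex*, the lower genes were *bab2*, a BTB factor, with 0.345, 0.446 and 0.424 FPKM in *Notch-RNAi* and 1.13, 1.53 and 1.11 FPKM in control (-1.88, limma adjusted p = 0.00996), and the Hox gene *Abd-B* (-1.67, limma adjusted p = 0.0457). *hth*, a TALE homeodomain factor, was higher, with 4.25, 6.12 and 4.36 FPKM in *Notch-RNAi* and 1.82, 1.27 and 1.69 FPKM in control (1.10, limma adjusted p = 0.0279). *hth* lost its call in every fit with 1 library left out (adjusted p up to 0.115). *Abd-B* kept it only without control replicate 2 (up to 0.126), and *bab2* kept it in all 6. *lab*, the Hox gene of the copper cell region, had 2.24, 2.10 and 1.95 FPKM in *Notch-RNAi* and 4.47, 3.64 and 3.20 FPKM in control and narrowly missed the threshold (-1.26, limma adjusted p = 0.0541). *cad* (-0.59), *Ptx1* (-0.80) and *tio* (-0.24) were not called.

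Genes of differentiated ECs did not move together. Of 57 tested digestive enzymes, 5 were lower (8.77%) and 0 higher, the median was -0.16 (0.30 as deposited), and 27 lay above and 30 below the median of all genes. The summed level of this list was 2570, 2090 and 423 FPKM in *Notch-RNAi* and 1080, 1670 and 1050 FPKM in control, so the *Notch-RNAi* libraries stood on both sides of the control libraries. *LysP*, a lysozyme, had 0.262, 0 and 0.122 FPKM in *Notch-RNAi* and 10.8, 23.7 and 6.22 FPKM in control (-6.34, limma adjusted p = 0.00062). It overlaps *mwh* on the other strand. The maltase gene *Mal-B1* had 0.0663, 0 and 0.0311 FPKM in *Notch-RNAi* and 0.788, 7.36 and 14.3 FPKM in control (-5.60, limma adjusted p = 0.0116), and overlaps *Pde1c*. A cluster of maltases on chromosome 2R gave the other 3 calls, *Mal-A6* (-2.43, limma adjusted p = 0.0124), *Mal-A4* (-2.54, limma adjusted p = 0.0346) and *Mal-A5* (-2.26, limma adjusted p = 0.0152). They are similar in sequence, and how reads shared between them were counted is not given in the sources used here. *Mal-B1* lost its call without *Notch-RNAi* replicate 2 (adjusted p = 0.0536), *Mal-A5* without that library or control replicate 3 (up to 0.064), and *Mal-A4* kept its call only without control replicate 2 (up to 0.104).

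The brush border and the junctions of ECs held 1 called gene among 23 tested. This was *Cad99C*, a protocadherin of microvilli, with 5.50, 5.60 and 2.03 FPKM in *Notch-RNAi* and 0.0775, 0.0137 and 0.0600 FPKM in control (4.33, limma adjusted p = 0.000566). It overlaps *dgt1* on the other strand. The brush border myosin gene *Myo31DF* had 75.6, 63.9 and 65.9 FPKM in *Notch-RNAi* and 194, 57.1 and 98.8 FPKM in control, with overlapping groups (-1.05, limma adjusted p = 0.285). *nub*, which encodes the EC marker Pdm1, had 0.976, 0.972 and 1.79 FPKM in *Notch-RNAi* and 6.24, 1.17 and 2.74 FPKM in control and was not called (-1.59, limma adjusted p = 0.295). *Ssk*, a component of smooth septate junctions, had 728, 650 and 558 FPKM in *Notch-RNAi* and 244, 216 and 220 FPKM in control, and stood just outside the threshold (1.04, limma adjusted p = 0.0504). *Ssk* was called higher with a pseudocount of 1, with a filter of 1 FPKM, and with only the 6 libraries compared, among other settings. The *Ssk* partners *Tsp2A* (0.77) and *mesh* (0.57) and the myosin gene *Myo61F* (-0.67) were not called.

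Lipid genes were called in both directions, 2 higher (8.0%) and 2 lower (8.0%) of 25, against 8.34% and 4.29% of all tested genes. *Lsd-1*, the perilipin of lipid droplets, had 7.42, 7.44 and 5.37 FPKM in *Notch-RNAi* and 0.535, 0.341 and 0.146 FPKM in control (3.59, limma adjusted p = 0.00187). It overlaps *CG10214* on the other strand. *Npc2b*, of a family of sterol-binding secreted proteins, had 447, 342 and 222 FPKM in *Notch-RNAi* and 94.4, 81.0 and 106 FPKM in control (1.34, limma adjusted p = 0.012). The lipoprotein assembly gene *Mtp* was lower, with 0.939, 0.979 and 3.19 FPKM in *Notch-RNAi* and 9.39, 4.78 and 7.14 FPKM in control (-2.63, limma adjusted p = 0.00929). So was the lipase gene *Lip4*, with 2.10, 5.78 and 6.5 FPKM in *Notch-RNAi* and 18.9, 15.3 and 12.6 FPKM in control (-2.27, limma adjusted p = 0.00998). *Npc2b* lost its call without *Notch-RNAi* replicate 1 (adjusted p = 0.0517), and the other 3 kept theirs.

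In the JAK-STAT pathway, which carries cytokine signals to ISCs, 2 of 13 genes were higher (15.4%) and 0 lower. *upd2*, a cytokine, had 415, 416 and 132 FPKM in *Notch-RNAi* and 36.9, 14.8 and 17.7 FPKM in control (3.27, SE 0.48, limma adjusted p = 0.00192). *Socs36E*, a feedback inhibitor and target of the pathway, had 208, 248 and 168 FPKM in *Notch-RNAi* and 90.9, 61.4 and 42.7 FPKM in control (1.27, limma adjusted p = 0.0109). It lost its call without *Notch-RNAi* replicate 2 (adjusted p = 0.0508), and *upd2* kept its call throughout. The cytokine *upd3*, induced by damage, had 112, 126 and 72.1 FPKM in *Notch-RNAi* and 43.8, 52.6 and 39.8 FPKM in control and missed the threshold (0.70, limma adjusted p = 0.072). The receptor *dome* (0.24, limma adjusted p = 0.372) and the transcription factor *Stat92E* (-0.59, limma adjusted p = 0.606) were not called, nor was the cytokine gene *upd1* (0.50, limma adjusted p = 0.668).

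In the EGFR pathway, a main mitogenic input of ISCs, 4 of 26 genes were higher (15.4%) and 0 lower, with a median of -0.01. *rho*, the intramembrane protease that releases the ligand Spitz, had 82.3, 122 and 46.1 FPKM in *Notch-RNAi* and 15.8, 17.7 and 13 FPKM in control (1.86, limma adjusted p = 0.0047). It overlaps *Ptp61F* on the other strand. *edl*, a small protein that binds the Ets factors of the pathway, had 150.0, 149 and 102 FPKM in *Notch-RNAi* and 48.5, 23.2 and 39.2 FPKM in control (1.44, limma adjusted p = 0.00662). *kek1*, a feedback inhibitor of the receptor, had 11.6, 13.6 and 4.74 FPKM in *Notch-RNAi* and 0.953, 2.89 and 1.54 FPKM in control (1.95, limma adjusted p = 0.0293). The rhomboid gene *ru*, under 1 FPKM in every library, was also called (1.75, limma adjusted p = 0.0339). *kek1* lost its call without *Notch-RNAi* replicate 1 or 2 or control replicate 1 or 3 (adjusted p up to 0.112), and *ru* kept it only without *Notch-RNAi* replicate 3 (up to 0.136). The ligands *spi* (0.36, limma adjusted p = 0.228) and *vn* (1.01, limma adjusted p = 0.157), the receptor *Egfr* (-0.28) and the Ets factor *Ets21C* (0.54, limma adjusted p = 0.0654) were not called. Nor were the feedback inhibitors *aos* (-0.58, limma adjusted p = 0.638), *sty* (-0.80, limma adjusted p = 0.408) and *Mkp3* (-0.10), the ligand *Krn* (-0.06) and the Ets factors *pnt* (-0.09) and *aop* (0.08).

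Toll and Imd pathway genes, which govern antimicrobial defence, included one of the largest increases. Of 30 tested, 3 were higher and 2 lower. *spz*, the Toll ligand (FBgn0003495, chromosome 3R, positions 27064990 to 27070070 on release 6), had 148, 184 and 213 FPKM in *Notch-RNAi* and 4.20, 4.37 and 6.10 FPKM in control (4.73, SE 0.32, limma adjusted p = 6.39e-05). *CG43935* lies within it on the other strand. *pirk*, an inhibitor of Imd signaling and one of its targets, had 388, 392 and 317 FPKM in *Notch-RNAi* and 113, 101 and 107 FPKM in control (1.31, limma adjusted p = 0.00111). *PGRP-LB*, an amidase that degrades bacterial peptidoglycan and is also induced by Imd, lay the other way, with 233, 263 and 345 FPKM in *Notch-RNAi* and 576, 866 and 970 FPKM in control (-1.97, limma adjusted p = 0.00324). It overlaps *CG17230*. The inhibitor gene *cact* was higher (0.74, limma adjusted p = 0.0416) and the adaptor gene *Tab2* lower (-1.14, limma adjusted p = 0.0337). *cact* lost its call in 4 of the 6 fits with 1 library left out, those without *Notch-RNAi* replicate 1 or 2 or control replicate 2 or 3, and *Tab2* kept its call only without control replicate 1 (adjusted p up to 0.16 and 0.109).

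Among 15 tested antimicrobial peptides, 1 was higher (6.67%) and 2 lower (13.3%). *AttD*, an attacin, had 82.8, 77.7 and 146 FPKM in *Notch-RNAi* and 169, 148 and 164 FPKM in control (-1.17, limma adjusted p = 0.0451), and kept its call only without *Notch-RNAi* replicate 3 (adjusted p up to 0.158). The cecropins *CecC* and *CecA2* were called in opposite directions. *CecC* was listed at 0 in all 3 *Notch-RNAi* libraries and at 0.473, 0.839 and 3.66 FPKM in control. *CecA2* had 1.44, 1.96 and 0.337 FPKM in *Notch-RNAi* and was listed at 0 in all 3 control libraries. Cecropin genes resemble each other, and how reads shared between them were counted is not given in the sources used here.

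**Figure D3:**
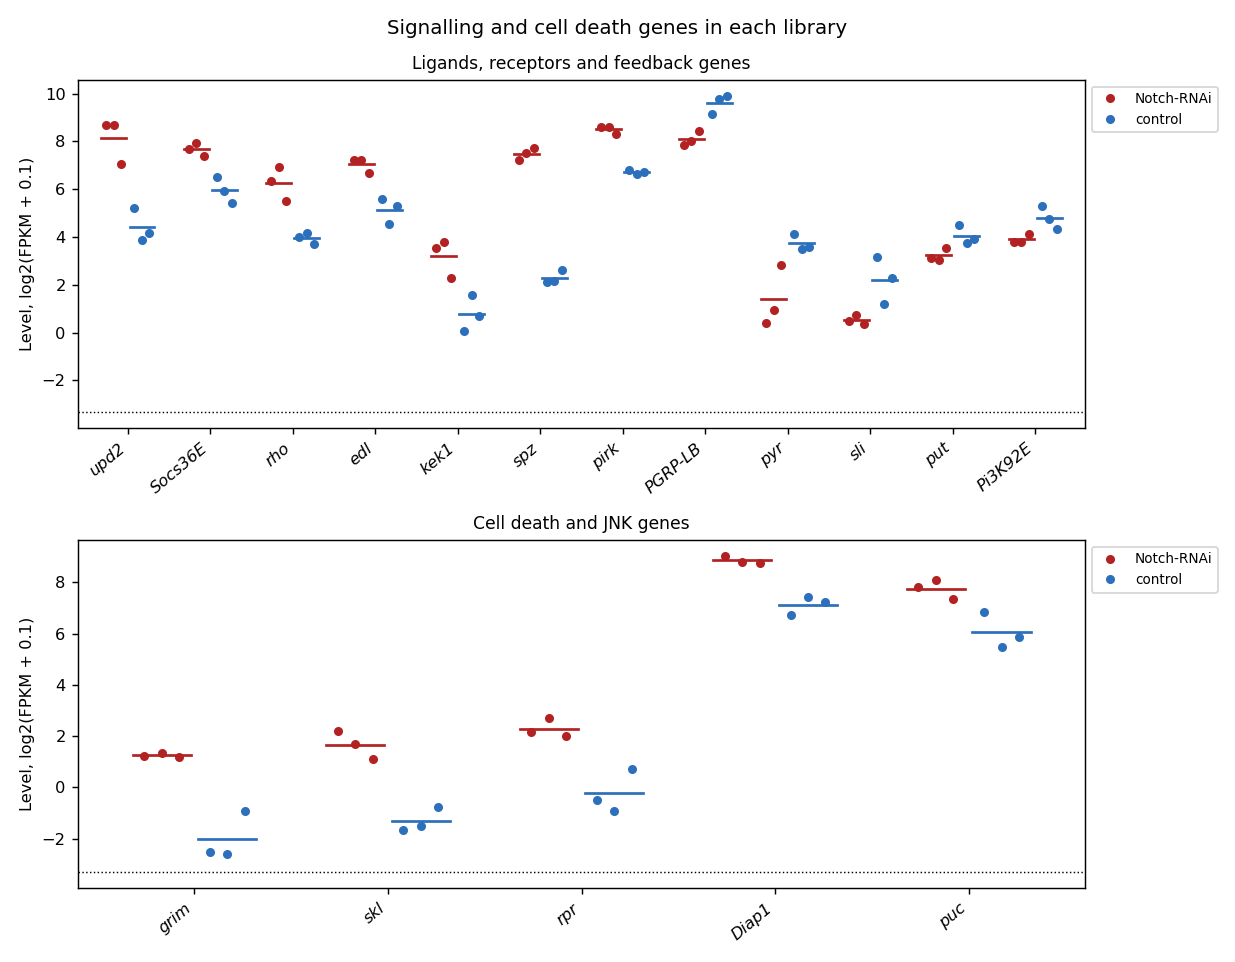
Level of ligands, receptors and feedback genes (upper panel) and of cell death and JNK genes (lower panel) in each library, as log2(FPKM + 0.1); points are libraries, Notch-RNAi in red left of control in blue, short lines are group means and the dotted line is 0 FPKM. upd2 and spz are higher in every Notch-RNAi library than in any control library, and PGRP-LB and pyr are lower. Of all 11493 tested genes, 4484 lay wholly above control in this way and 920 wholly below.

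Cell death and JNK genes had one of the largest shares of higher members. Of 26 tested, 8 were higher (30.8%) and 0 lower, with a median of 0.25. At an unadjusted limma p under 0.05 under both scalings, 9 were higher and 0 lower. Of the 4 inducers of apoptosis in the list, all on chromosome 3L, 3 were called higher and *hid* was not. *grim* had 2.26, 2.46 and 2.16 FPKM in *Notch-RNAi* and 0.0732, 0.0657 and 0.428 FPKM in control (2.81, limma adjusted p = 0.00521). *skl* had 4.53, 3.11 and 2.04 FPKM in *Notch-RNAi* and 0.216, 0.255 and 0.487 FPKM in control (2.51, limma adjusted p = 0.0047). *rpr* had 4.38, 6.35 and 3.89 FPKM in *Notch-RNAi* and 0.609, 0.432 and 1.53 FPKM in control (2.06, limma adjusted p = 0.023). *hid* had 2.54, 3.45 and 2.2 FPKM in *Notch-RNAi* and 2.48, 0.833 and 1.67 FPKM in control, with overlapping groups (0.32, limma adjusted p = 0.665). *Diap1*, the inhibitor that such inducers antagonise, was higher as well, at 524, 445 and 436 FPKM in *Notch-RNAi* against 106, 172 and 152 FPKM in control (1.27, limma adjusted p = 0.00742). The initiator caspase gene *Dronc* (0.90, limma adjusted p = 0.0491), the effector caspase gene *Drice* (0.85, limma adjusted p = 0.0311) and *p53* (0.79, limma adjusted p = 0.0301) were also called. *puc*, the phosphatase that is both target and brake of JNK, had 226, 271 and 165 FPKM in *Notch-RNAi* and 116, 44.4 and 58.6 FPKM in control (1.23, limma adjusted p = 0.0225). *rpr* lost its call without *Notch-RNAi* replicate 1 or 2 or control replicate 1 or 2 (adjusted p up to 0.0899) and *puc* without *Notch-RNAi* replicate 1 or 2 or control replicate 2 or 3 (up to 0.0875), while *grim*, *skl* and *Diap1* kept theirs. *Dronc* kept its call only without *Notch-RNAi* replicate 3 (up to 0.168), and *Drice* and *p53* lost theirs without *Notch-RNAi* replicate 1 or 2 or control replicate 1 or 3 (up to 0.107 and 0.112). *p53* overlaps *Gr94a* on the other strand. In all, 5 of the 8 calls in this list were lost in some fit with 1 library left out.

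Other growth and patterning pathways changed in single genes. In the Hippo pathway, 3 of 18 genes were higher (16.7%) and 1 lower (5.56%). *vg*, a partner of the transcription factor Scalloped, had 1.23, 1.85 and 1.23 FPKM in *Notch-RNAi* and 0.181, 0.138 and 0.0502 FPKM in control (2.34, limma adjusted p = 0.00568). *Tgi*, which holds the Yorkie and Scalloped complex down, had 6.99, 9.22 and 9.40 FPKM in *Notch-RNAi* and 24.9, 13.5 and 15.5 FPKM in control (-1.49, limma adjusted p = 0.0183), and lost its call without *Notch-RNAi* replicate 1 or 2 (adjusted p up to 0.0784). The kinase gene *wts* was called higher (0.75, limma adjusted p = 0.0416), a call kept only without control replicate 1 (up to 0.148). *Diap1* was the third higher member, and *yki* itself was not called (-0.37), nor was *sd* (-0.07), which encodes Scalloped.

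In the BMP and activin pathway, *put*, a type II receptor, was the only call among 19 genes, with 8.64, 8.12 and 11.6 FPKM in *Notch-RNAi* and 22.3, 13.5 and 15.0 FPKM in control (-1.28, limma adjusted p = 0.0398). The target gene *Dad* was not called (-0.66, limma adjusted p = 0.617), nor were *brk* (-0.67), *gbb* (0.52) and *dpp* (0.73). In the insulin and TOR pathway, 1 of 21 genes was lower (4.76%) and 1 higher (4.76%). *Pi3K92E*, the catalytic PI3-kinase, had 13.8, 13.9 and 17.2 FPKM in *Notch-RNAi* and 39.0, 27.1 and 20.1 FPKM in control (-1.35, limma adjusted p = 0.0223), and the kinase gene *Akt* had 55.5, 58.8 and 54.4 FPKM in *Notch-RNAi* and 26.5, 23.3 and 21.3 FPKM in control (0.79, limma adjusted p = 0.0153). *foxo* (-1.19, limma adjusted p = 0.235), its target *Thor* (0.20) and *ImpL2* (0.56), which binds insulin-like peptides, were not called. With 1 library left out, *put* lost its call without *Notch-RNAi* replicate 1 or 2 or control replicate 1 or 3 (adjusted p up to 0.133), *Pi3K92E* without *Notch-RNAi* replicate 1 or 2 or control replicate 2 (up to 0.0836), and *Akt* without *Notch-RNAi* replicate 1 or 2 or control replicate 3 (up to 0.0587).

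*pyr*, an FGF ligand, was the only call among 7 genes of the PVR and FGF pathways. It had 1.24, 1.85 and 7.09 FPKM in *Notch-RNAi* and 17.5, 11.3 and 11.8 FPKM in control (-2.79, limma adjusted p = 0.0118), and lost the call without *Notch-RNAi* replicate 2 (adjusted p = 0.0609). The receptor *Pvr* (-0.36) and the ligands *Pvf1* (-0.60), *Pvf2* (-0.80) and *Pvf3* (0.22) were not called. Of 27 Slit-Robo and axon guidance genes, 4 were higher (14.8%) and 1 lower (3.7%). *sli*, the secreted ligand, had 1.3, 1.57 and 1.19 FPKM in *Notch-RNAi* and 8.95, 2.17 and 4.71 FPKM in control (-2.14, limma adjusted p = 0.0274), and kept its call only without control replicate 2 (up to 0.0872). Its receptor gene *robo1* lay the other way, with 5.90, 5.25 and 4.76 FPKM in *Notch-RNAi* and 2.24, 2.03 and 1.97 FPKM in control (0.85, limma adjusted p = 0.0298), also kept only without control replicate 2 (up to 0.126). *robo2*, a second receptor, was not called (0.91, limma adjusted p = 0.196). The adhesion genes *Ten-a* (1.34, limma adjusted p = 0.0285) and *trn* (1.12, limma adjusted p = 0.0174) and the semaphorin gene *Sema2b* (1.3, limma adjusted p = 0.00946) were higher. *Sema2b* lost its call without *Notch-RNAi* replicate 2 (up to 0.0509), *trn* without *Notch-RNAi* replicate 1 or 2 or control replicate 3 (up to 0.0739) and *Ten-a* without *Notch-RNAi* replicate 1 or 2 or control replicate 1 or 3 (up to 0.106). Of 22 ecdysone response genes, the nuclear receptor gene *Eip78C* was lower (-1.68, limma adjusted p = 0.0349, lost without *Notch-RNAi* replicate 1 or 2 or control replicate 1 or 3) and *Ldh*, given below, was higher.

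Of 23 integrin, laminin and adhesion genes, 3 were lower (13%) and 1 higher. *Itgbn*, a beta integrin of the midgut, had 6.66, 8.01 and 9.44 FPKM in *Notch-RNAi* and 30, 29.0 and 19.7 FPKM in control (-2.14, limma adjusted p = 0.00115). *Fak*, the focal adhesion kinase, had 6.04, 6.22 and 7.80 FPKM in *Notch-RNAi* and 14.7, 16.7 and 11.5 FPKM in control (-1.54, limma adjusted p = 0.0144). *LanA*, a laminin chain, had 41.9, 44.3 and 36.6 FPKM in *Notch-RNAi* and 88.4, 66.5 and 64.8 FPKM in control (-1.29, limma adjusted p = 0.0134). *CadN*, the neural cadherin, was higher at under 1 FPKM (1.60, limma adjusted p = 0.025), while *shg*, the epithelial cadherin, was not called (0.57, limma adjusted p = 0.108), nor was the beta integrin gene *mys* (-0.18). *Fak* lost its call without *Notch-RNAi* replicate 1 or 2 (adjusted p up to 0.0621) and *CadN* without those or control replicate 1 or 3 (up to 0.1). Of 11 actin and tubulin genes only *gammaTub23C*, which nucleates microtubules, was called, with 47.2, 48.1 and 49.8 FPKM in *Notch-RNAi* and 13.5, 11.1 and 16.4 FPKM in control (1.37, limma adjusted p = 0.00172).

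Families that serve growth shifted by small amounts and mostly below the threshold for single genes. Cytosolic ribosomal protein genes had a median of -0.62 (-0.16 as deposited), 81 of 86 lay below the median of all genes, and 3 were called lower (3.49%) and 1 higher (1.16%). Their summed level as deposited was 658000, 592000 and 661000 FPKM in *Notch-RNAi* and 595000, 886000 and 758000 FPKM in control, so the groups overlapped. *RpL22* had 6160, 4600 and 5800 FPKM in *Notch-RNAi* and 8240, 9370 and 9440 FPKM in control (-1.18, limma adjusted p = 0.0286). *RpL4* (-1.16) and *RpL13A* (-1.04) were the other lower genes, and all 3 kept their calls only without control replicate 1 (adjusted p up to 0.113). *RpS19b*, a second copy of the RpS19 gene, was higher, with 10.1, 11.4 and 10.1 FPKM in *Notch-RNAi* and 2.80, 2.16 and 2.54 FPKM in control (1.58, limma adjusted p = 0.00232). The 44 translation factors had a median of -0.48 (-0.02 as deposited), with *eIF4E1* (-1.11, limma adjusted p = 0.0278) and *eIF2A* (-1.02, limma adjusted p = 0.0394) called lower. With 1 library left out, *eIF4E1* kept its call only without *Notch-RNAi* replicate 3 or control replicate 3, and *eIF2A* only without control replicate 3 (adjusted p up to 0.0701 and 0.108). Of 42 genes listed for ribosome biogenesis and the Myc network, 4 were higher (9.52%) and 1 lower (2.38%), near the 8.34% and 4.29% of all tested genes. The exosome gene *Rrp46* led them, with 39.1, 32.5 and 38.3 FPKM in *Notch-RNAi* and 8.01, 8.33 and 6.42 FPKM in control (1.8, limma adjusted p = 0.00064), and the others called were *wcd* (1.20), *Rrp1* (0.64), *pzg* (0.52) and *Non1* (-1.22), each in at most 2 of the 6 fits with 1 library left out. Of these, *Rrp1* encodes recombination repair protein 1, a DNA repair protein, so its call is not one of ribosome biogenesis. *Myc* (-0.45), *nop5* (0.07) and *Fib* (-0.05) were not called.

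Proteasome and mitochondrial ribosome genes lay on the other side. Of 31 proteasome subunits, 30 were above the median of all genes, the list median was 0.40, and 4 were called higher (12.9%). *Prosalpha5* had 287, 306 and 371 FPKM in *Notch-RNAi* and 99.3, 112 and 124 FPKM in control (1.06, limma adjusted p = 0.00708), and *Rpn1* (0.89), *Prosalpha3* (0.85) and *Rpn2* (0.84) were the others. Of 73 mitochondrial ribosomal proteins, 60 were above, the median was 0.22 and 5 were called higher (6.85%, below the 8.34% of all genes). *mRpL43* had 31.4, 30.3 and 30 FPKM in *Notch-RNAi* and 9.68, 8.98 and 13.8 FPKM in control (1.06, limma adjusted p = 0.00764). The others were *mRpL9* (0.92), *mRpL47* (0.79), *mRpS29* (0.68) and *mRpL11* (0.67), each of which overlaps a gene on the other strand. Of these 7 further calls, *Rpn2* kept its own in 5 of the 6 fits with 1 library left out and the others in at most 2. The respiratory chain (80 genes, 1 higher, 0 lower, median -0.06 and as deposited 0.40), the TCA cycle and mitochondrial biogenesis list (28 genes, 1 higher, 0 lower, median -0.25 and as deposited 0.21) and the vacuolar ATPase (22 genes, 1 higher, 1 lower, median -0.41 and as deposited 0.05) held few calls. Their called genes were *COX7CL* (2.34), *PolG1* (1.22), *Vha68-1* (1.59) and *Vha100-4* (-2.33). *Prosalpha5*, *mRpL43*, *COX7CL* and *Vha68-1* kept their calls in all 6 fits with 1 library left out, *PolG1* lost its own without *Notch-RNAi* replicate 1 or 2 (adjusted p up to 0.0652), and *Vha100-4* kept its own only without control replicate 1 (up to 0.137).

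Of 22 genes of glycolysis and lactate metabolism, 3 were higher (13.6%), 2 were lower (9.09%) and 17 were not called. *Glut1*, a glucose transporter, had 5.93, 6.40 and 2.53 FPKM in *Notch-RNAi* and 0.387, 0.421 and 0.160 FPKM in control (3.08, limma adjusted p = 0.00408). *Ldh*, which makes lactate, averaged 233 ± 34.9 FPKM in *Notch-RNAi* and 76.5 ± 24.8 FPKM in control (SD, n = 3 each; 1.18, limma adjusted p = 0.0175). *Pepck1*, of gluconeogenesis, was higher by 0.98 (limma adjusted p = 0.0444). The glycolytic enzymes *Gapdh2*, with 353, 322 and 353 FPKM in *Notch-RNAi* and 514, 602 and 619 FPKM in control (-1.21, limma adjusted p = 0.00566), and *Pgi* (-1.19, limma adjusted p = 0.0255) were lower. *Glut1* and *Gapdh2* kept their calls with any library left out. *Ldh* lost its call without *Notch-RNAi* replicate 1 or 2 or control replicate 1 or 2 (adjusted p up to 0.068), *Pgi* kept it only without control replicate 2 (up to 0.0716), and *Pepck1* lost it in all 6 fits (up to 0.146).

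**Figure D4:**
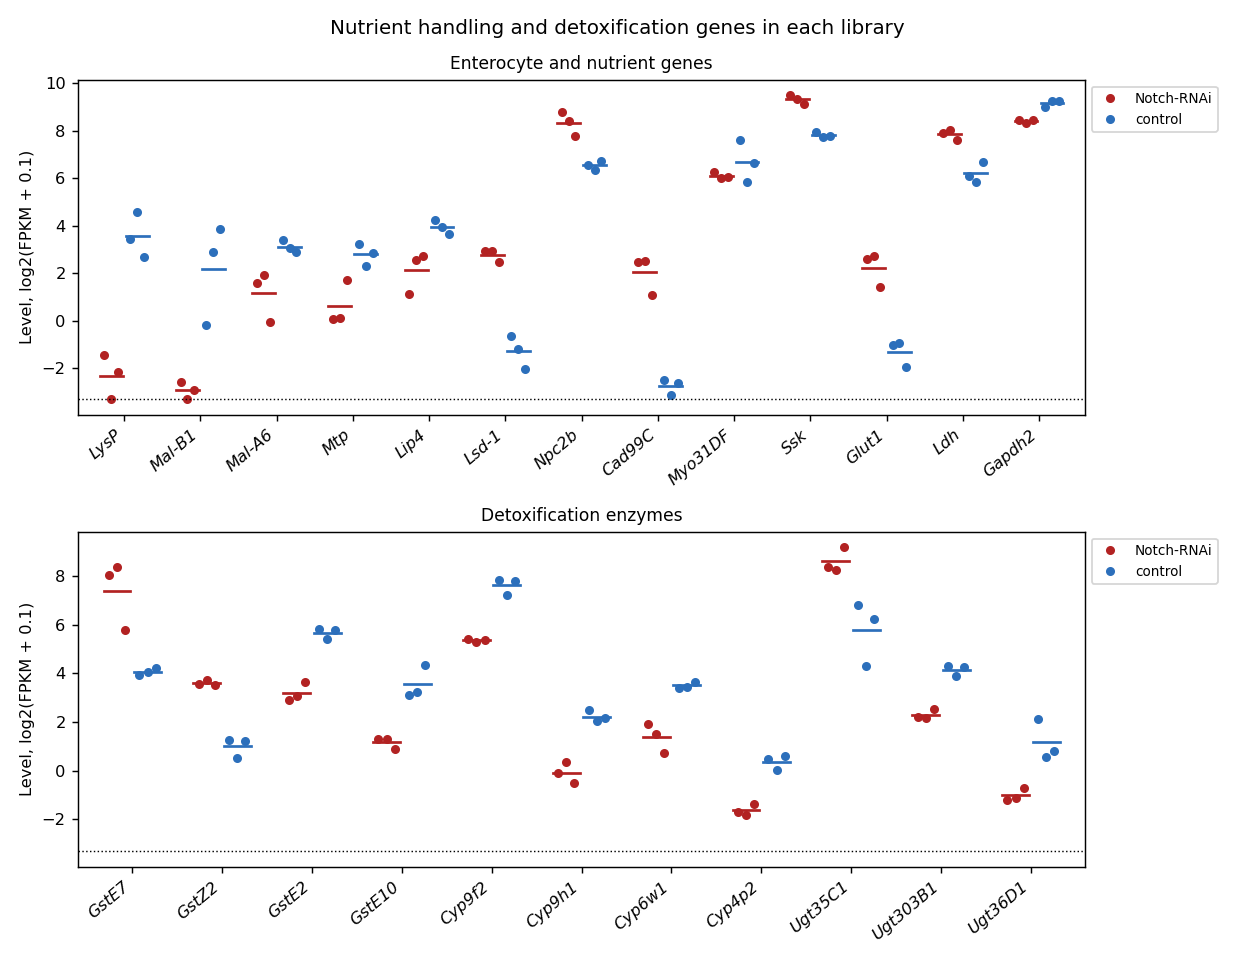
Level of enterocyte and nutrient genes (upper panel) and of detoxification enzymes (lower panel) in each library, as log2(FPKM + 0.1); points are libraries, Notch-RNAi in red left of control in blue, short lines are group means and the dotted line is 0 FPKM. LysP and Mal-B1 lie near 0 FPKM in Notch-RNAi, Lsd-1 and Glut1 are higher there, and the cytochrome P450 genes shown are lower.

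Each of the 3 lists of detoxification enzymes had a share of lower calls above the 4.29% of all tested genes. Of 66 tested cytochrome P450 genes, 0 were called higher by limma (4 at an unadjusted p under 0.05) and 9 were lower (13.6%), with a median of -0.47 (-0.01 as deposited). *Cyp9f2* had 42.7, 38.8 and 41 FPKM in *Notch-RNAi* and 228, 150 and 224 FPKM in control (-2.73, SE 0.18, limma adjusted p = 0.000144). *Cyp9h1* had 0.831, 1.19 and 0.602 FPKM in *Notch-RNAi* and 5.45, 3.98 and 4.35 FPKM in control (-2.76, limma adjusted p = 0.00226). *Cyp6w1* had 3.67, 2.73 and 1.56 FPKM in *Notch-RNAi* and 10.5, 10.8 and 12.4 FPKM in control (-2.58, limma adjusted p = 0.014). *Cyp4p2* (-2.45, limma adjusted p = 0.00466), *Cyp6a22* (-2.02), *Cyp9f3* (-1.95), *Cyp6a9* (-1.61), *Cyp4ae1* (-1.41) and *Cyp6v1* (-1.23) completed the lower genes. *Cyp6w1* lost its call without *Notch-RNAi* replicate 2 (adjusted p = 0.0524), and *Cyp6a22* kept it only without *Notch-RNAi* replicate 3 (up to 0.102). *Cyp6v1* lost its call without *Notch-RNAi* replicate 1 (0.0551), *Cyp4ae1* kept it only without *Notch-RNAi* replicate 2 (up to 0.115), and *Cyp9f3* and *Cyp6a9* kept theirs throughout.

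Glutathione and conjugation enzymes went both ways. Of 49 redox and glutathione transferase genes, 6 were higher (12.2%) and 3 lower (6.12%). *GstE7* had 261, 331 and 54.6 FPKM in *Notch-RNAi* and 15.3, 16.3 and 18.5 FPKM in control (2.87, limma adjusted p = 0.00869). Its cluster neighbour *GstE2* had 7.34, 8.24 and 12.3 FPKM in *Notch-RNAi* and 57.0, 41.9 and 54.6 FPKM in control (-2.93, limma adjusted p = 0.000797). *GstE10* was also lower, with 2.35, 2.38 and 1.76 FPKM in *Notch-RNAi* and 8.54, 9.34 and 19.9 FPKM in control (-2.85, limma adjusted p = 0.00193), and overlaps *GstE1*. *GstZ2* (2.15, limma adjusted p = 0.00355), *Gclm*, a subunit of the enzyme that starts glutathione synthesis (1.34, limma adjusted p = 0.00874), *GstD5* (1.25), *GstE6* (0.91) and *Prx2* (0.78) were higher, and *GstO2* (-1.08) was lower. *Prx2* lost its call without *Notch-RNAi* replicate 2 (0.0585), *GstD5* in all 6 fits with 1 library left out (adjusted p up to 0.127), *GstE6* without *Notch-RNAi* replicate 1 or 2 (up to 0.0633) and *GstO2* without those or control replicate 3 (up to 0.078). Members of this cluster resemble each other, and how shared reads were counted is not given in the sources used here.

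Of 28 glucuronosyltransferases, 5 were lower (17.9%) and 4 higher (14.3%), with a median of -0.45 (0.01 as deposited). *Ugt303B1* had 4.46, 4.32 and 5.76 FPKM in *Notch-RNAi* and 19.4, 14.9 and 18.8 FPKM in control (-2.31, limma adjusted p = 0.000598). *Ugt36D1* (-2.64, limma adjusted p = 0.00758), *Ugt302E1* (-2.51, limma adjusted p = 0.0138), *Ugt303B3* (-2.08, limma adjusted p = 0.0092) and *Ugt302C1* (-1.19, limma adjusted p = 0.0277) were the other lower genes. *Ugt35C1* had 333, 307 and 584 FPKM in *Notch-RNAi* and 111, 19.7 and 74.2 FPKM in control (2.38, limma adjusted p = 0.0425). It, *Ugt301D1* (1.43) and *Ugt37A3* (1.39) kept their calls in 1 of the 6 fits with 1 library left out and *Ugt49C1* (1.33) in 0, with adjusted p up to 0.191. Among the lower genes, *Ugt302E1* lost its call without *Notch-RNAi* replicate 1 or 2 (up to 0.066) and *Ugt302C1* without those or control replicate 1 or 2 (up to 0.109), and *Ugt303B1*, *Ugt303B3* and *Ugt36D1* kept theirs in all 6.

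**Figure D5:**
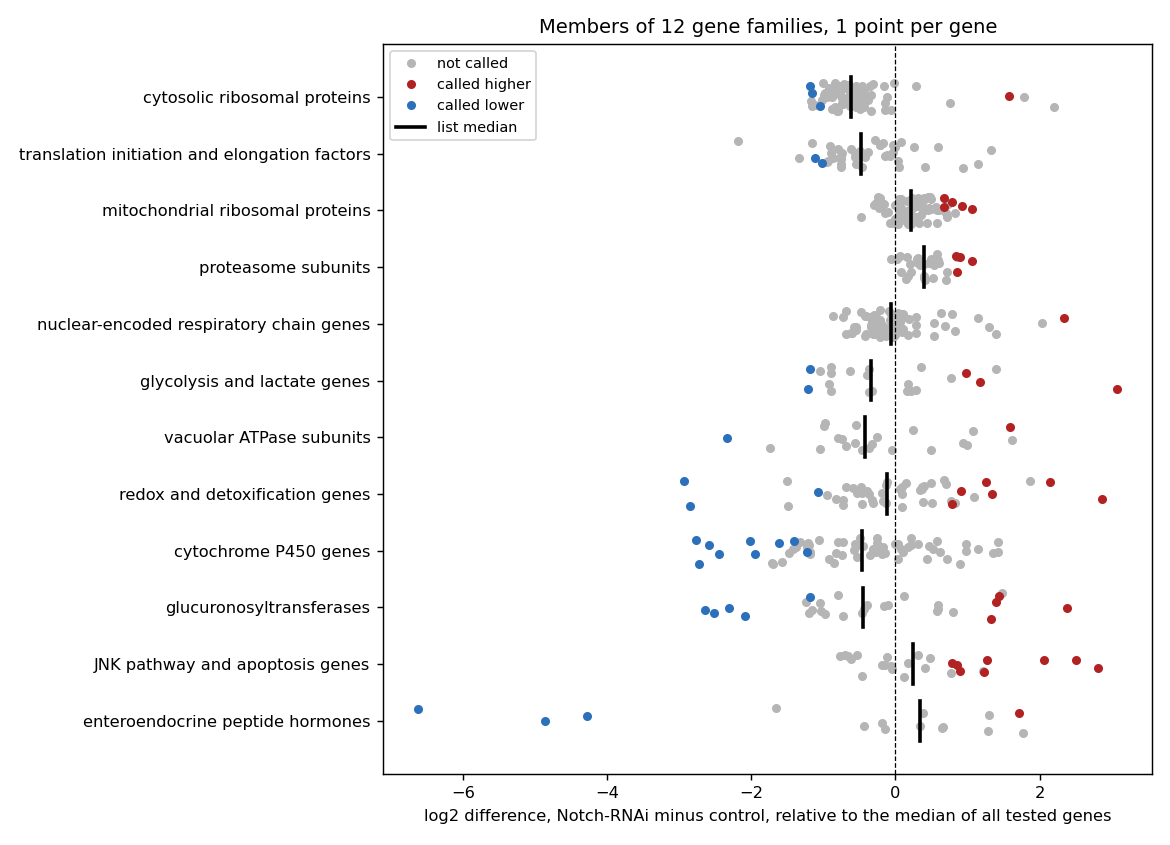
Relative log2 difference of each tested member of 12 gene families (horizontal axis, Notch-RNAi minus control, relative to the median of all tested genes at the dashed line); points are genes, red called higher, blue called lower, grey not called, and black bars are list medians. Ribosomal protein genes centre at -0.62 and proteasome subunits at 0.40, while the cytochrome P450 genes called are all lower.

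Stress and chromatin lists held smaller sets. Of 28 heat shock and chaperone genes, *Hsp68* (1.20, limma adjusted p = 0.0382) and the co-chaperone gene *stv* (0.71, limma adjusted p = 0.0129) were higher and 0 lower. Of 29 Polycomb and trithorax genes, 4 were higher (13.8%) and 0 lower. The PhoRC component *Sfmbt* had 14, 14.3 and 12 FPKM in *Notch-RNAi* and 5.04, 5.18 and 5.15 FPKM in control (0.91, limma adjusted p = 0.00701). The histone methyltransferase gene *E(z)* had 17.3, 16.4 and 16.0 FPKM in *Notch-RNAi* and 7.03, 6 and 7.68 FPKM in control (0.80, limma adjusted p = 0.0103), and *Pc* (0.88, limma adjusted p = 0.0216) and *mor* (0.70, limma adjusted p = 0.0209) were the other 2. Of 24 DNA damage and chromatin assembly genes, 3 were higher (12.5%), *Ssrp* (0.98), *grp* (0.78) and *lok* (0.76), and 1 was lower (4.17%), *Nap1* (-0.99). *Sfmbt* kept its call in all 6 fits with 1 library left out, *E(z)* lost it without *Notch-RNAi* replicate 1 (adjusted p = 0.0563), *stv* without *Notch-RNAi* replicate 1 or 2 (up to 0.0639), and *Hsp68* in all 6 (up to 0.108). *Pc* and *mor* lost theirs without *Notch-RNAi* replicate 1 or 2 or control replicate 2 or 3 (up to 0.101), *Ssrp* without *Notch-RNAi* replicate 1 or 2 or control replicate 1 or 3 (up to 0.154), and *grp*, *lok* and *Nap1* in 5 of the 6 fits (up to 0.138).

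The largest single increases and decreases held several genes of other functions. They were taken outside the lists set aside and among genes averaging 1 FPKM or more in the higher group. Genes with a CG or CR number or a non-coding RNA prefix were left out and not ranked. Such genes made up 395 of the 958 higher calls and 235 of the 493 lower calls. *Lime*, a zinc finger gene, had 29.7, 22.1 and 8.97 FPKM in *Notch-RNAi* and 0.133, 0 and 0 FPKM in control (6.64, SE 0.56, limma adjusted p = 0.000166). *Reepl1* had 20.6, 18.4 and 21.9 FPKM in *Notch-RNAi* and 0, 0.111 and 0.122 FPKM in control (6.47, limma adjusted p = 0.0124). *S-Lap1*, a leucyl aminopeptidase known from sperm, had 11.1, 8.99 and 4.59 FPKM in *Notch-RNAi* and 0.0441, 0 and 0.0854 FPKM in control (5.36, limma adjusted p = 0.000369). *fw* (furrowed), a selectin-like adhesion gene, had 5.31, 5.62 and 4.77 FPKM in *Notch-RNAi* and 0.0940, 0.0401 and 0.0219 FPKM in control (4.70, limma adjusted p = 0.000276). For these 4 genes the call was kept with any library left out.

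Of the other large increases, 4 genes were listed at 0 in every control library, so no fold is given for them. *mthl8*, of the Methuselah receptor family, had 6.47, 8.24 and 7.10 FPKM in *Notch-RNAi* (limma adjusted p = 0.0218). *Prtl99C*, a protamine-like gene that overlaps *CG42592*, had 9.70, 8.14 and 2.39 FPKM there (limma adjusted p = 0.00042) and lies next to *Cad99C* on chromosome 3R. The dynein light chain gene *robl62A*, which overlaps *stet*, had 3.06, 3.63 and 1.43 FPKM, and *Xport-A*, which overlaps *Xport-B* on the same strand, had 2.61, 2.37 and 2.18 FPKM (limma adjusted p = 0.00215 and 0.0145). *lectin-37Da*, which overlaps *Pax*, had 22.8, 36.8 and 8.08 FPKM in *Notch-RNAi* and 0.980, 0.522 and 0.950 FPKM in control (3.96, limma adjusted p = 0.034). *RNaseP:RNA*, the RNA of ribonuclease P, which overlaps *ATPsynC* on the same strand, had 16.8, 16.4 and 5.76 FPKM in *Notch-RNAi* and 0, 3.14 and 0.857 FPKM in control (3.66, limma adjusted p = 0.0475). It kept its call only without control replicate 2 (adjusted p up to 0.146). *lectin-37Da* kept its call only without *Notch-RNAi* replicate 3 (adjusted p up to 0.118), *mthl8* only without control replicate 2 (up to 0.0721), and *Xport-A* lost it without *Notch-RNAi* replicate 1 or 2 (up to 0.0572).

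Among the largest decreases, those of *whe* and *lcs* were near losses. *whe* had 0, 0.314 and 0.270 FPKM in *Notch-RNAi* and 264, 655 and 686 FPKM in control (-11.41, SE 1.28, limma adjusted p = 0.00105). *lcs* had 0, 0 and 0.130 FPKM in *Notch-RNAi* and 49.7, 169 and 166 FPKM in control (-10.19, SE 1.39, limma adjusted p = 0.00243). Both lie on chromosome X, *lcs* from 21396727 to 21397316 and *whe* from 21402339 to 21402772 on the minus strand of release 6. *Drip*, an aquaporin, had 0.134, 0.279 and 0.445 FPKM in *Notch-RNAi* and 7.88, 4.61 and 7.91 FPKM in control (-4.66, limma adjusted p = 0.000228), and overlaps *CG7763*. The carbonic anhydrase gene *CAH1* had 6.35, 2.84 and 2.27 FPKM in *Notch-RNAi* and 45.3, 46.5 and 36.3 FPKM in control (-4.04, limma adjusted p = 0.000411), and overlaps *Adat1*. *Ag5r*, of the antigen 5 family, had 1.45, 1.63 and 1.82 FPKM in *Notch-RNAi* and 22.6, 49.9 and 79.7 FPKM in control (-5.16, limma adjusted p = 0.000674). The seminal fluid gene *Sfp26Ac* had 1.02, 2.22 and 12.4 FPKM in *Notch-RNAi* and 47.7, 32.3 and 16.4 FPKM in control (-3.67, limma adjusted p = 0.0161), a call lost without *Notch-RNAi* replicate 1 or 2 or control replicate 1 (adjusted p up to 0.0732). Its neighbour *Acp26Ab* was at 0 in all 3 *Notch-RNAi* libraries and at 2.75, 2.02 and 0.666 FPKM in control. *pre-mod(mdg4)-J*, also called lower, is 1 of several overlapping gene models on the same strand, and its value may depend on how reads were divided between them.

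Each of the 6 marker lists for other tissues held a called gene. The share of higher members was 33.3% for germline and follicle, 33.3% for haemocytes and 25.0% for neurons and glia. It was 15.4% for muscle, 14.3% for fat body and 0 for trachea and tubule, against 8.34% of all tested genes. The haemocyte markers *Hml*, *NimC1* and *eater*, the glial marker *repo*, the muscle myosin gene *Mhc* and the fat body genes *Lsp1alpha* and *Lsp2* were among the listed markers that lay below the filter of 0.1 FPKM, 7 of them for haemocytes, 4 for fat body, 4 for germline, 3 for muscle, 3 for trachea and tubule and 1 for neurons and glia. Of 13 tested muscle markers 2 were higher, *Zasp66* and *TpnC73F* (1.37), and the summed level of the list was 515 to 753 FPKM in *Notch-RNAi* and 486 to 685 FPKM in control, while *Mlc1* was at most 0.402 FPKM in *Notch-RNAi* and at most 0.702 FPKM in control. Of 12 tested neuron and glia markers 3 were higher, and their sum was 100 to 202 FPKM in *Notch-RNAi* and 75.2 to 129 FPKM in control. The neuronal RNA-binding gene *elav*, which overlaps *arg*, had 16.5, 22.6 and 16.9 FPKM in *Notch-RNAi* and 6.30, 5.54 and 3.82 FPKM in control (1.37, limma adjusted p = 0.00627), its relative *fne* was not called (0.79), and *nSyb* and *futsch* (1.31) were the others called. Of 9 germline and follicle markers 3 were higher, *piwi* (1.93), *Cp38* (1.76) and *bam* (1.49), in sums of 10.2 to 13.8 FPKM in *Notch-RNAi* and 3.09 to 4.03 FPKM in control. Of 7 fat body markers 1 was higher, *Lsp1gamma* (1.70), in sums of at most 5.14 FPKM in *Notch-RNAi* and at most 5.09 FPKM in control, and *Lsp1beta* was not called. Of 7 trachea and Malpighian tubule markers 1 was lower, *Irk3* (-2.65), in sums of 42.4 to 48.1 FPKM in *Notch-RNAi* and 29.7 to 42.4 FPKM in control. Of 3 tested haemocyte markers 1 was higher. It was the Runx factor gene *lz*, known from eye and blood cells, with 3.33, 3.86 and 3.22 FPKM in *Notch-RNAi* and 0.32, 0.0775 and 0.0282 FPKM in control (3.61, limma adjusted p = 0.00215), and the summed level of the list was 47.5 to 54.1 FPKM in *Notch-RNAi* and 53.7 to 90.9 FPKM in control. Markers named in these lists and not called were *Mlc2* (-0.06) and *up* (-0.01) of muscle, *onecut* (-0.25) of neurons, *Yp1* (-0.26), *Yp2* (-0.90) and *Yp3* (-0.90) of fat body, *nanos* (0.35) of germline, and *trh* (0.00) and *Uro* (0.94) of trachea and tubule. The part of these markers in the results above was not tested. *Zasp66* overlaps *Cdc6* on the other strand, *piwi* overlaps *SCAR* and *bam* overlaps *CG11854*. *TpnC73F*, *Zasp66*, *futsch*, *bam* and *Cp38* kept their calls in at most 2 of the 6 fits with 1 library left out, and *Lsp1gamma* lost its own without *Notch-RNAi* replicate 1 or 2.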

How the data were processed

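RNA-seq was performed on Dl+ cells sorted by FACS from adult intestines, with 3 replicates for each of *Notch-RNAi*, *gro-RNAi* and control. The authors deposited 1 table of FPKM values for 17481 genes. The submitters' processing notes name STAR 2.5.2b and the BDGP6 build, and whether counting used strand is not given in the sources used here. Symbols were matched by gene identifier to Ensembl release 115 for 17176 genes. FPKM is not a count, so log2(FPKM + 0.1) was tested with limma 3.58.1 in R 4.3.3, with a trended prior, over genes averaging 0.1 FPKM or more. All 9 libraries entered 1 fit, and p-values were Benjamini-Hochberg adjusted over 11493 genes. A call needed an adjusted p under 0.05 in the same direction as deposited and after centring libraries on their medians. Depth was estimated from steps between low values of genes of at least 2500 bases, and this estimate is approximate. The same code was tested on simulated data.

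Named genes were N, the 14 largest increases and 14 largest decreases, and in each list its key members and up to 5 called members in each direction. The largest changes were taken among called genes with no overlap of groups and a mean of at least 1 FPKM in the higher group. They also had to lie outside the *E(spl)* and cell cycle lists. Genes with a CG or CR number or a non-coding RNA prefix were left out of that ranking. The genes *w*, *nAChRbeta1*, *Acp26Ab*, *Dronc*, *Drice*, *p53*, *Prx2*, *Cyp9f3*, *Cyp6a9*, *Cyp4ae1*, *Cyp6v1* and the neighbours of named genes were chosen after their values were seen. Members and lists were chosen with earlier results of these data known. Alternatives were pseudocounts, filters, scalings, priors, a fold threshold, the 6 compared libraries alone, a replicate block and leaving out each library. Replicate numbers did not pair libraries. Promoter and protein sequences were not analysed here.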

Additional observations from a re-analysis of the deposited data

How the results depend on the processing

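The 958 higher and 493 lower calls became 2806 higher calls with the values as deposited alone and 1294 lower calls with centring alone, where 85.1% and 42.5% of calls were higher. Leaving out 1 library gave 381 to 818 higher and 228 to 453 lower calls, and the counts were lowest without *Notch-RNAi* replicate 1 (381 and 228) and replicate 2 (420 and 237), with 593 higher calls without control replicate 3. *N* fell by 1.88, and by 1.73 to 2.04 with a library left out. The exact two-sided permutation test of *N* gave p = 0.1, the smallest that 3 against 3 allows. Of the 185 called genes that were named besides *N*, all had the same direction in every setting, 82 kept the call with any library left out, 140 kept it with no filter and 157 with a filter of 1 FPKM. Same-numbered libraries did not deviate together (correlations from -0.0137 to 0.0534). With the replicate block 760 genes were higher and 425 lower, *N* stayed at -1.88 (limma adjusted p = 0.00465) and 151 of the named calls were kept. Of 22 list medians of at least 0.3 in size, 7 had the other sign as deposited, 5 changed sign in another setting and 11 did so in either. Some genes that were not called passed in another setting. With only the 6 libraries compared these included *Orcokinin*, *tap*, *w*, *Ssk* and *Lsp1beta*. With a pseudocount of 1 they included *Ssk*, *upd3* and *Ets21C*. Values near 0 FPKM rest on few reads, and the deposited table gives no counting error.

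Of 95 named genes that were not called, 27 changed sign in some setting, and none of these was over 0.73 in size. With a pseudocount of 1 the values were 0.00 for *H*, 0.09 for *mira*, *Krn* and *sd*, 0.05 for *pnt*, 0.06 for *Mkp3*, 0.01 for *fz2*, -0.06 for *dpp*, -0.13 for *Pvf3*, 0.12 for *Fib*, -0.12 for *nanos* and -0.19 for *trh*. With a pseudocount of 0.01 they were 0.80 for *Hey*, 0.17 for *pdm2*, 0.04 for *tio* and 0.01 for *up*. With no filter they were 0.06 for *Hey*, 0.07 for *pdm2*, 0.02 for *mira* and *sd*, 0.03 for *Krn* and *Mlc2*, 0.04 for *Fib* and 0.08 for *up*. Centred on genes of at least 10 FPKM they were 0.04 for *Hey*, 0.05 for *pdm2*, 0.01 for *mira*, *Krn* and *Mlc2*, 0.00 for *sd*, 0.02 for *Fib* and 0.06 for *up*. With 1 library left out the ranges were -0.10 to 0.28 for *neur*, -0.23 to 0.05 for *H*, -0.29 to 0.19 for *Hey*, -0.30 to 0.20 for *pdm2*, -0.17 to 0.10 for *mira*, -0.40 to 0.04 for *tio*, -0.10 to 0.46 for *svr*, -0.09 to 0.24 for *Sec5*, -0.70 to 0.19 for *Snap25*, -0.21 to 0.16 for *Krn*, -0.28 to 0.19 for *pnt*, -0.20 to 0.23 for *aop*, -0.23 to 0.03 for *Mkp3*, -0.35 to 0.01 for *fz2*, -0.21 to 0.10 for *sd*, -0.20 to 0.57 for *Pvf3*, -0.36 to 0.02 for *mys*, -0.13 to 0.09 for *Fib*, -0.01 to 0.18 for *nop5*, -0.03 to 0.60 for *hid*, -0.16 to 0.05 for *Mlc2*, -0.21 to 0.27 for *up*, -0.45 to 0.14 for *onecut*, -0.72 to 0.36 for *Yp1* and -0.06 to 0.07 for *trh*.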

Other observations

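Several called genes lay near other called genes. These loci were chosen after their values were seen, and other neighbours in them were not called or not tested. Whether neighbours were called more often than the 8.34% higher and 4.29% lower of all tested genes was not tested. On chromosome 2L, *rau* (-2.78), *Sfp26Ac* (-3.67), *CG9029* (-4.40), *CG9021* (-3.95) and lncRNA:CR43808 (-3.69) were lower, with *Acp26Ab* among them, while the adjacent receptor gene *TrissinR* was higher (1.92). *CG9021* had 49.6, 51.0 and 35.4 FPKM in *Notch-RNAi* and 583, 710 and 311 FPKM in control. Near *spz* on 3R, *Nep5* (2.66) and *CG14257* (2.53) were higher too. So was *CG43935* (4.32), which lies within *spz* on the other strand. Near *klu* on 3L, lncRNA:CR45745 (-4.18) and lncRNA:CR44547 (-2.66) were lower. On X, near *lcs* and *whe*, *DIP-beta* was higher (2.52) and *Ddx56* was lower (-1.14).

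The eye pigment transporter gene *w*, also a marker in many transgenes, had 55.0, 77.6 and 33.1 FPKM in *Notch-RNAi* and 3.19, 5.24 and 4.15 FPKM in control. No library overlapped, as in 4484 tested genes in this direction, and *w* was not called (3.17, limma adjusted p = 0.118). It overlaps *kirre*.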
